A study of Mus musculus with 2 samples.

Results

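The genes that encode integrins and laminins were followed in single cells of mouse skin wounds: 36 genes, made up of 18 integrin alpha subunit genes, 8 integrin beta subunit genes and 10 laminin chain genes, of 31053 genes in the count matrices. They were taken by name, as members of these families. Integrins are receptors of 1 alpha and 1 beta subunit that span the plasma membrane, bind matrix or the surface of another cell outside, and hold the actin or keratin cytoskeleton inside through adaptor proteins. Laminins are trimers of an alpha, a beta and a gamma chain and form the sheet of the basement membrane on which keratinocytes, vessels, muscle and nerve rest. In skin, the integrin of Itga6 and Itgb4 sits in hemidesmosomes and binds the laminin that holds the Lama3 and Lamb3 chains, while the integrins that share Itgb2 belong to leukocytes and serve adhesion to endothelium, complement binding and phagocytosis.

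Live cells were sorted from back skin wounds of C57BL/6 mice aged 7 to 9 weeks, cut out with a 10 mm punch on day 5 of healing, and 1 droplet library was made per group. GEO's labels call all of the mice Mrc1-DTR, a line in which the Mrc1 promoter drives the diphtheria toxin receptor, and give PBS to 1 group and diphtheria toxin to the other. The study's methods instead describe wild-type and Mrc1-DTR mice, both given the toxin, with the cells of 3 mice pooled per group, so the libraries are named here by label alone, control for PBS and Mrc1-DTR for the toxin. The methods give 2 technical replicates and no biological replicate, each group has 1 matrix, and no test between the groups was possible: ratios are given with 95% intervals that cover counting error only, not the spread between mice.

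After filtering, 7944 cells remained in the control library and 6613 in the library labelled Mrc1-DTR, with median counts of 9580 and 7286 UMIs (unique molecular identifiers, each 1 captured transcript) per cell; 13 cell barcodes of kept cells occurred in both. Mrc1, whose cells the toxin targets, stood at 65.4 CPM (counts per 1000000 UMIs of the cells summed) in all kept control cells and at 268 CPM in the library labelled Mrc1-DTR, and at 491 and 429 CPM in macrophage-like cells, so the depletion that the label names was not seen in the summed level. The study's text also gives the cell numbers of the deposited matrices, 12058 and 11031, with the groups exchanged. Its account of the cell types uses the groups as the labels do, and every direction below rests on the labels. Clustering without the 36 genes gave 8 classes with at least 50 cells in each library, and their shares moved with the library: macrophage-like cells made up 21.4% of control cells and 67.0% of cells labelled Mrc1-DTR, fibroblast-like cells 38.6% and 9.92%, and epithelial-like cells 26.0% and 3.55%. All 12 macrophage markers of the list were raised in the macrophage-like cluster. In the dendritic-like cluster 8 of 11 dendritic markers were raised, and 10 of the macrophage markers were raised as well. Lower shares of a class cannot be told apart from a higher yield of the others.

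Of the 36 genes, 33 had at least 200 UMIs over all kept cells. The other members had few: Itga10 had 57 UMIs, Lama1 39 and Itgad 8. Levels differed between the classes of cells, and the same class held the highest level in both libraries for 27 of the 33 genes. This was 81.8% of members, beside 67.4% of the 12142 genes of the whole table with at least 200 UMIs. For 15 of the 27, the highest class stood apart from the next by its counting interval in both libraries.

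Before the values, 3 promoters are shown, those of Itga1, Itgam and Itgax. These genes passed 2-fold between the libraries in macrophage-like cells, Itgam upward and its chromosomal neighbour Itgax downward. Itga9 passed 2-fold downward there as well, and its promoter is not shown. Each line gives the 250 bases before the RefSeq start of the gene in GRCm38.p6, read 5′ to 3′ on the strand of the gene. Capitals mark GAGGAA, the short core bound by PU.1-type ETS factors of myeloid cells, and TGANTCA, the AP-1 site, each searched on both strands.
Itga1, chr13:115101965-115102214, minus strand: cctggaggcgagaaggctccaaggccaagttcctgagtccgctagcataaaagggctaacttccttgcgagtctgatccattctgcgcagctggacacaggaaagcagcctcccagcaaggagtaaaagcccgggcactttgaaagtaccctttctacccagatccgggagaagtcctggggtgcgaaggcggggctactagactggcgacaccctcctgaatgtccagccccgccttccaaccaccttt
Itgam, chr7:128062390-128062639, plus strand: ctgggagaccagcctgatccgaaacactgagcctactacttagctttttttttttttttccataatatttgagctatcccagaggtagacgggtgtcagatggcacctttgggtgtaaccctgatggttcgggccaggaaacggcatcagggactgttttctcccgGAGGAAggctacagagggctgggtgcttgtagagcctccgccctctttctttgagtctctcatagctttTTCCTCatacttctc
Itgax, chr7:128129300-128129549, plus strand: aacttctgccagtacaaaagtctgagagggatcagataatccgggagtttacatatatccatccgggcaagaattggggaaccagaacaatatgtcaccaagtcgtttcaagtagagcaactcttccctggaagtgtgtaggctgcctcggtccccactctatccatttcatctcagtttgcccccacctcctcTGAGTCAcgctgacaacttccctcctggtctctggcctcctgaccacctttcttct
The Itgam promoter held GAGGAA at 2 places, the first 84 bases before the start and the second, on the opposite strand, 15 bases before it. The Itgax promoter held 1 AP-1 match, 56 bases before the start, and no GAGGAA, and the Itga1 promoter held neither. GAGGAA occurred in 23.3% of all 32851 promoters of the table and TGANTCA in 6.75%, so such matches are common and say nothing alone about binding. Promoters of 23 members were in the table, and 13 of them held GAGGAA while 1, that of Itgax, held TGANTCA. Itgam (chromosome 7, 128062640 to 128118491) and Itgax (128129547 to 128150657) lie head to tail on the plus strand with 11055 bases between them, and Itgad follows after a further 3718 bases. Itga1 (chromosome 13, 114953096 to 115101964) has Itga2 as its neighbour across 20995 bases on the same strand.

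**Figure D1:**
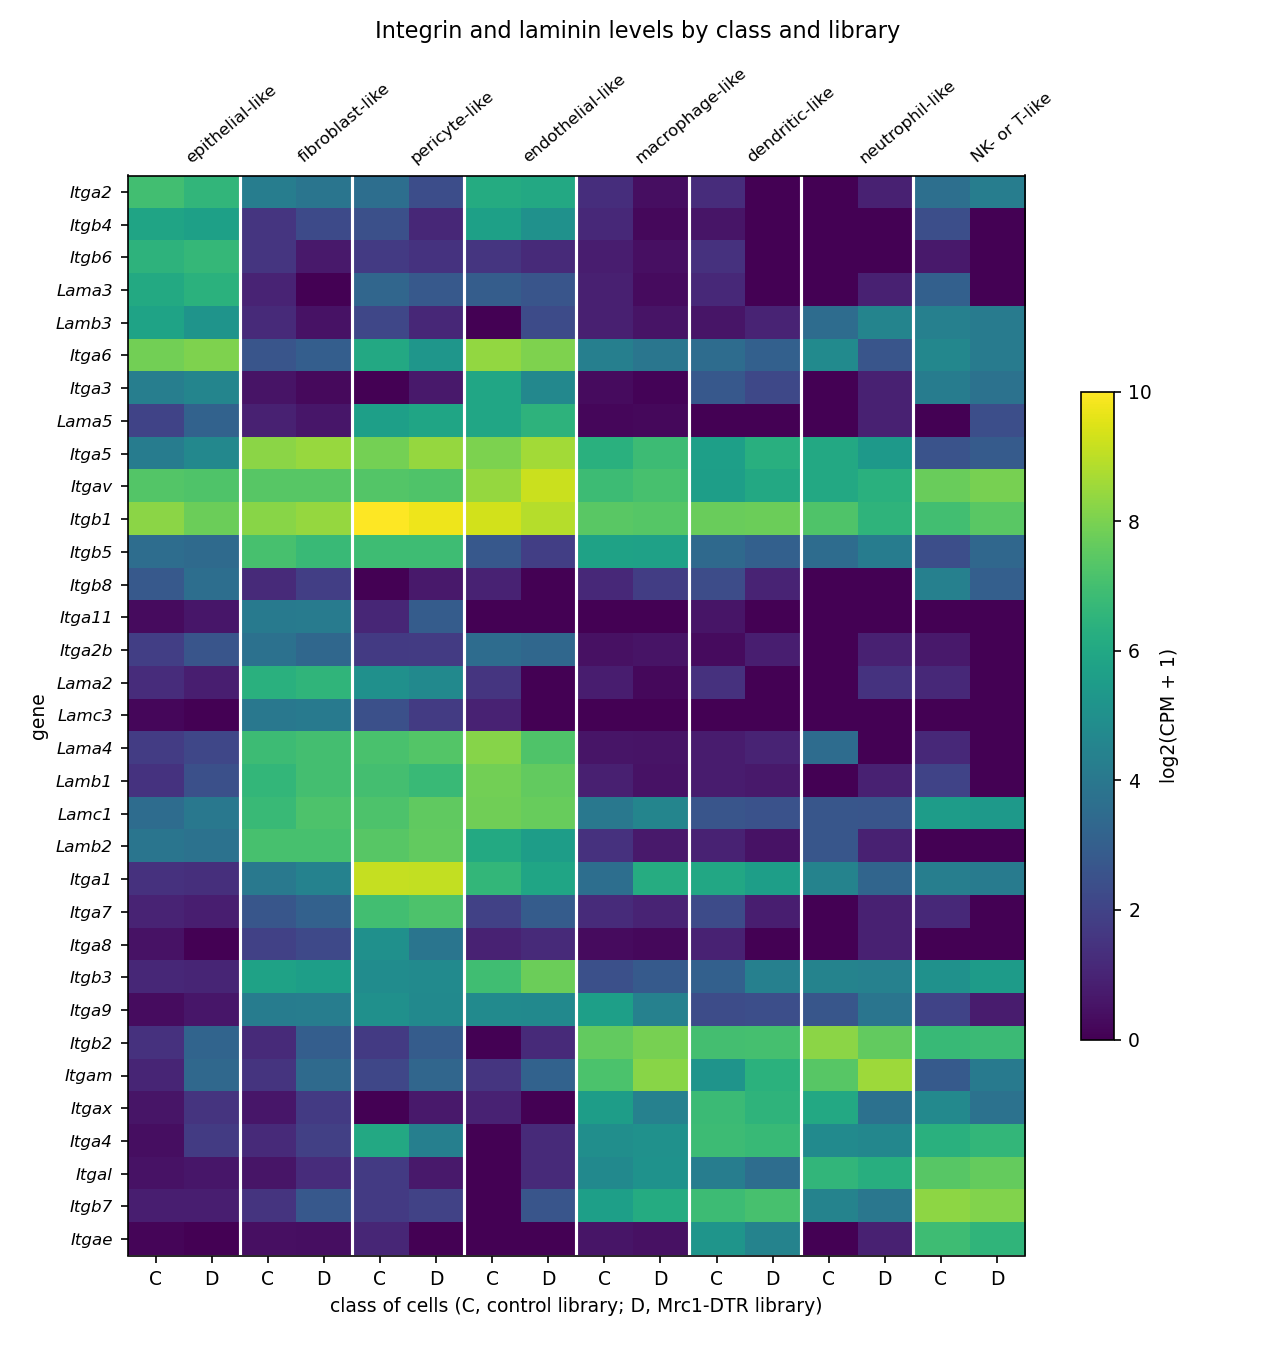
Levels of the 33 integrin and laminin genes with at least 200 UMIs, as log2(CPM + 1), in the 8 classes of cells (columns) of the control (C) and Mrc1-DTR (D) libraries. Itgb6, at 87.1 and 98.9 CPM, and Lama3, at 65.6 and 83.7 CPM, are brightest in epithelial-like cells of both libraries, and Itgb2 and Itgam are bright in several immune classes.

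Epithelial-like cells carried the genes of the hemidesmosome and of its laminin. Itgb4, the beta subunit of the hemidesmosome, stood at 56.0 CPM in the control library and 49.7 CPM in the library labelled Mrc1-DTR. Lama3 stood at 65.6 and 83.7 CPM, and Lamb3 at 54.9 and 35.0 CPM. Itgb6, whose integrin activates latent TGF-beta, stood at 87.1 and 98.9 CPM, against at most 2.24 CPM in any other class compared, and Itga2, a collagen receptor subunit, at 123 and 93.8 CPM. Epithelial-like cells held the highest level of these 5 genes in both libraries, but for 3 of them the next class was close. Endothelial-like cells were next for Itgb4, at 50.6 and 32.4 CPM, with counting intervals that overlapped in both libraries, and for Itga2, at 69.6 and 64.8 CPM, with intervals that overlapped in the library labelled Mrc1-DTR. Lamb3 stood at 21.8 CPM in neutrophil-like cells of that library, an interval that also overlapped. Itga6 reached 235 and 269 CPM in epithelial-like cells, but 330 and 270 CPM in endothelial-like cells, where it also pairs with Itgb1.

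Fibroblast-like cells carried a second set. Itga11, a receptor subunit for fibrillar collagen, reached 16.1 CPM in the control library and 17.0 CPM in the library labelled Mrc1-DTR, and no other class exceeded 6.55 CPM. Lama2, the alpha chain of muscle and mesenchymal laminin, stood at 79.8 and 91.8 CPM and Lamc3 at 14.9 and 15.95 CPM, both with their highest level in fibroblast-like cells. Itga2b, known as a platelet integrin, stood at 12.3 and 9.16 CPM in them, and higher in mast-like cells, which were too few to compare. Endothelial-like cells were close for Itga2b, at 10.5 and 9.08 CPM, with counting intervals that overlapped in both libraries. Itgb5, a vitronectin receptor subunit, stood at 136 and 110 CPM, beside 118.5 and 117.8 CPM in pericyte-like cells. Its highest class changed, with counting intervals that overlapped in both libraries. Itga5, the fibronectin receptor subunit, was at 303 and 352 CPM in fibroblast-like cells and at 262 and 393 CPM in endothelial-like cells. Its highest class changed with the library, but the counting intervals of these classes overlapped in the library labelled Mrc1-DTR.

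Pericyte-like and endothelial-like cells held the highest levels of 5 and 7 members in both libraries. Itga1, a collagen and laminin receptor subunit of smooth muscle and capillary walls, stood at 550 and 539 CPM in pericyte-like cells. Itga7, a laminin receptor subunit of muscle, stood there at 123 and 146 CPM and Itga8 at 31.3 and 13.7 CPM. Itgb1, the beta subunit that most matrix receptors share, reached 1023 and 857 CPM in pericyte-like cells, 635 and 471 CPM in endothelial-like cells and 304 and 218 CPM in epithelial-like cells, and did not fall under 89.8 CPM in any class of either library. Lamb2, a beta chain of vessel and muscle laminins, was at 169 and 191 CPM in pericyte-like cells. In endothelial-like cells Lama5 stood at 60.1 and 88.2 CPM, Lamc1 at 224 and 205 CPM and Lamb1 at 234 and 193 CPM. Itgav and Itgb3, which form the vitronectin receptor of growing vessels, were at 341 and 586 CPM and at 121 and 217 CPM. For Lama5, pericyte-like cells were next, at 49.2 and 57.7 CPM, with counting intervals that overlapped in both libraries. Intervals overlapped in the library labelled Mrc1-DTR for Lamc1 (pericyte-like, 189 CPM), Itga3 (epithelial-like, 22.4 CPM) and Itga6 (epithelial-like, 269 CPM). The vessel classes were small, with 61 and 112 pericyte-like and 73 and 55 endothelial-like cells.

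The leukocyte integrins were spread over the immune classes. Itgb2, their common beta subunit, stood at 303 CPM in neutrophil-like, 190 in macrophage-like, 107 in NK- or T-like and 129 in dendritic-like cells of the control library, and at 194, 245, 112 and 133 CPM in the library labelled Mrc1-DTR, so its highest class changed. Itgam, the alpha subunit of complement receptor type CR3, was highest in neutrophil-like cells, at 170 and 375 CPM. Itgax, the alpha subunit known as a dendritic cell marker, stood at 111 and 90.7 CPM in dendritic-like cells, and Itga4, which binds Vcam1 and fibronectin, at 114 and 106 CPM. NK- or T-like cells held the highest levels of Itgal, the receptor subunit for Icam1, at 167 and 200 CPM, of Itgb7 at 314 and 271 CPM, and of Itgae, the E-cadherin receptor subunit of resident T cells, at 117 and 92.4 CPM. In the control library the next class had an overlapping counting interval for Itgam (macrophage-like, 144 CPM), Itgax (neutrophil-like, 63.8 CPM) and Itgal (neutrophil-like, 95.7 CPM). The same held for Itga4 (NK- or T-like, 98.8 CPM) in the library labelled Mrc1-DTR. No member had its highest level in macrophage-like cells in both libraries. Neutrophil-like cells were shallow, with medians of 1224 and 1922 UMIs, and their values rest on few counts.

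Laminin chains were at or near 0 in macrophage-like cells with 1 exception. Lamc1, the common gamma chain, stood at 14.9 and 22.3 CPM there, while the 9 other laminin genes were at 1.69 CPM or less in both libraries. In NK- or T-like cells Lamc1 was at 44.8 and 40.9 CPM and Lamb3 at 19.6 and 16.9 CPM. Macrophage-like cells also had UMIs of genes typical of other classes. Fibroblast genes (8 genes summed) stood in them at 899 CPM in the control library and at 186 CPM in the library labelled Mrc1-DTR. Keratinocyte genes (9 genes) stood there at 521 and 156 CPM. The part of such RNA in the low laminin levels was not tested.

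In macrophage-like cells, 4 members differed by at least 2-fold between the libraries. Itga1 and Itgam were higher, and Itgax and Itga9 lower, in the library labelled Mrc1-DTR. Itga1 had 94 UMIs and 11.3 CPM (9.14 to 13.8) in 1700 control cells and 2182 UMIs and 71.4 CPM (68.4 to 74.5) in 4433 cells labelled Mrc1-DTR, a log2 ratio of 2.56 (95% counting interval 2.36 to 2.97). With every cell thinned to 2000 UMIs, Itga1 was found in 1.35% of control cells and 11.3% of the others, against 0.394% and 0% of epithelial-like cells (0 of 229, which allows a share of up to 1.60% of cells with a UMI at this depth, and is no limit on cells that express the gene); without thinning, macrophage-like shares were 4% and 24.5%. Itgam stood at 144 and 300 CPM (log2 ratio 1.05, 0.97 to 1.15) and was found in 23.5% and 42.3% of thinned cells, or 42.8% and 74.3% of cells at full depth. Itgax fell from 46.9 to 20.1 CPM, a log2 ratio of -1.19 (-1.41 to -1.04). Itga9, a receptor subunit for tenascin-C and osteopontin, stood at 49.2 and 20.1 CPM (log2 ratio -1.25, -1.48 to -1.11).

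These were 2 higher and 2 lower of the 16 members with at least 50 UMIs in both libraries together, read against 1.60% of 10171 genes at least 2-fold higher and 3.33% at least 2-fold lower in macrophage-like cells. Itgam came to 0.98 with median-of-ratios scaling and Itga9 to -0.97 with cells limited to 2000 genes, so each was then within 2-fold. The median log2 ratio was 0.37 over the 16 members and 0.06 over all genes tested. Among the others, Itga5 was at 80.0 and 116 CPM (log2 ratio 0.53, 0.42 to 0.66), Itgb7 at 49.3 and 70.8 CPM (0.51, 0.37 to 0.68) and Itgb2 at 190 and 245 CPM (0.36, 0.29 to 0.45). Lamc1 had a log2 ratio of 0.55 (0.30 to 0.87) and Itgb8, on 10 and 78 UMIs, of 0.69 (0.13 to 2.20). Itgb1 (-0.09, -0.17 to 0.00), Itgb5 (-0.04, -0.19 to 0.11) and Itga4 (0.13, -0.07 to 0.34) were within 0.2 of no difference, and Itga6 stood at -0.38 (-0.67 to -0.13). The remaining members tested, Itgav (0.24), Itgal (0.37) and Itgb3 (0.39), were also within 2-fold.

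**Figure D2:**
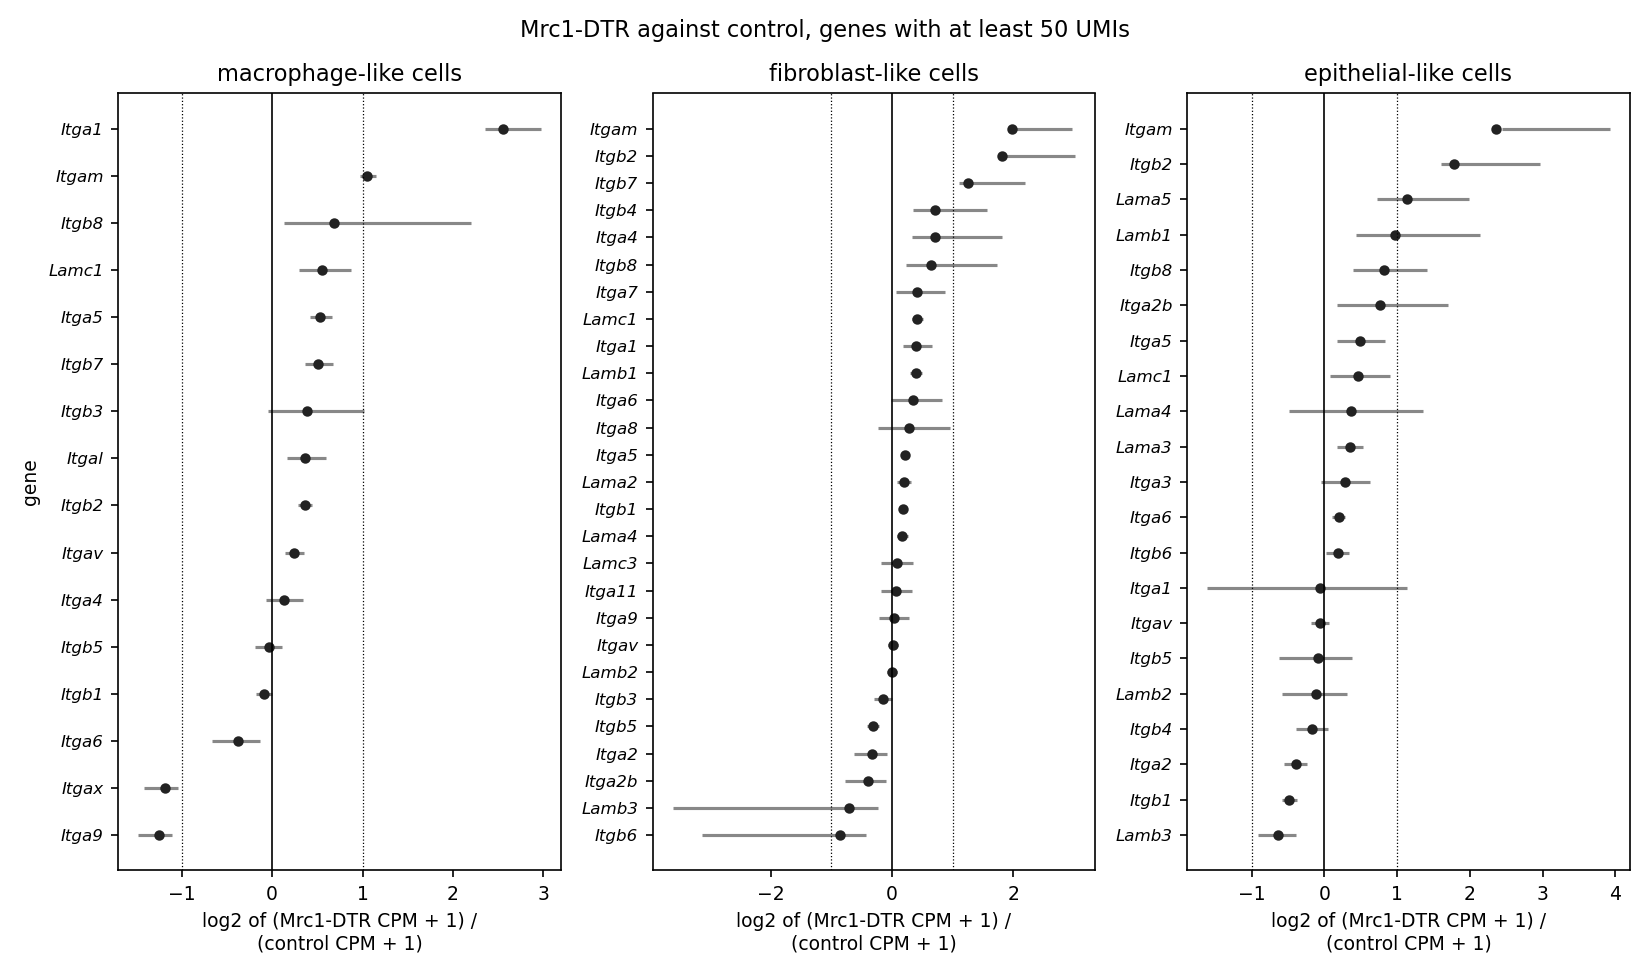
Log2 ratio of the level in the Mrc1-DTR library to that in the control library for each member with at least 50 UMIs, in macrophage-like, fibroblast-like and epithelial-like cells. Points are ratios with 1 CPM added to both levels, bars are 95% counting intervals of the ratio without it (so that a bar can miss its point at low levels), and dotted lines mark 2-fold; in macrophage-like cells only Itga1, Itgam, Itgax and Itga9 pass them.

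The macrophage-like cells of the libraries were not the same mix of cells. They fell into 7 subclusters, found without the 36 genes. Subclusters 1 (Cd9-like, rich in Arg1) and 2 (unnamed, with Vcan at 425 CPM in the control library and 680 CPM in the other) held 11 and 38 of 1700 control cells but 1177 and 1048 of 4433 cells labelled Mrc1-DTR. Subclusters 0 (unnamed, with H2-Ab1 at 8416 and 6798 CPM) and 3 (unnamed, with C1qa at 2583 and 2210 CPM) held 868 and 598 control cells and 357 and 346 of the others. Subcluster 4 (Ccl7-like) held 69 and 755 cells, subcluster 5 (unnamed) 57 and 654 and subcluster 6 (Ifit1-like) 59 and 96.

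The 4 members had unequal levels in these subclusters. In the library labelled Mrc1-DTR, Itga1 stood at 121 CPM in subcluster 2 and 97.1 CPM in subcluster 1. It stood at 16.7 CPM in subcluster 0 and 13.6 CPM in subcluster 3 of that library. The few control cells of subcluster 2 had 55.4 CPM (12 UMIs), a log2 ratio of 1.11 (0.32 to 2.09). Control cells of subclusters 0 and 3 had 9.94 and 6.38 CPM. The Itga1 level was higher in the library labelled Mrc1-DTR in every subcluster, on few control UMIs in some. Itgam stood at 378 and 373 CPM in subclusters 2 and 1 of that library, and at 153 and 178 CPM in subclusters 0 and 3. Control cells of subcluster 2 had Itgam at 208 CPM (log2 ratio 0.86, 0.44 to 1.32). Those of subclusters 0 and 3 had it at 128 and 158 CPM. Itgax showed the reverse in subcluster 2, at 7.86 CPM in the library labelled Mrc1-DTR and 9.24 CPM (2 UMIs) in the control library. It was also low in subcluster 4 (Ccl7-like), at 3.47 and 10.4 CPM (16 and 3 UMIs) in the same order. In subclusters 1 and 3 of the library labelled Mrc1-DTR Itgax stood at 22.05 and 20.66 CPM. Itga9 was low in subcluster 2, at 3.61 CPM in the library labelled Mrc1-DTR and 9.24 CPM (2 UMIs, interval 1.12 to 33.4) in the control library. In subcluster 0 it stood at 42.6 and 55.3 CPM in the same order.

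In subcluster 0 the log2 ratio of Itga1 was 0.70 (0.11 to 1.39), that of Itgam 0.26 (0.07 to 0.45), that of Itgax -0.39 (-0.81 to 0.00) and that of Itga9 -0.37 (-0.72 to -0.04), and 0 of 14 members passed 2-fold. No share of all genes is given for single subclusters, so counts within them are not read as a result about the members. In subcluster 3, Itgax stood at 71.5 and 20.7 CPM (log2 ratio -1.74, -2.34 to -1.27), the one member of 13 past 2-fold, while Itgam was at 0.17 (-0.05 to 0.39) and Itga9 at -0.20 (-0.65 to 0.23). Itgb2 had a log2 ratio of -0.60 (-0.83 to -0.38) in subcluster 3 and 0.09 (-0.08 to 0.26) in subcluster 0. In the Ifit1-like subcluster Itgam (1.30, 0.68 to 2.00) and Itga5 (1.05, 0.36 to 1.83) were past 2-fold. In the Ccl7-like subcluster Itga1 (1.77, 0.03 to 4.97) and Lamc1 (2.19, -0.03 to 7.80) were too, on 2 and 1 UMIs in the control library, and in subcluster 5 the largest was Itga5 at 0.66 (0.10 to 1.31).

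**Figure D3:**
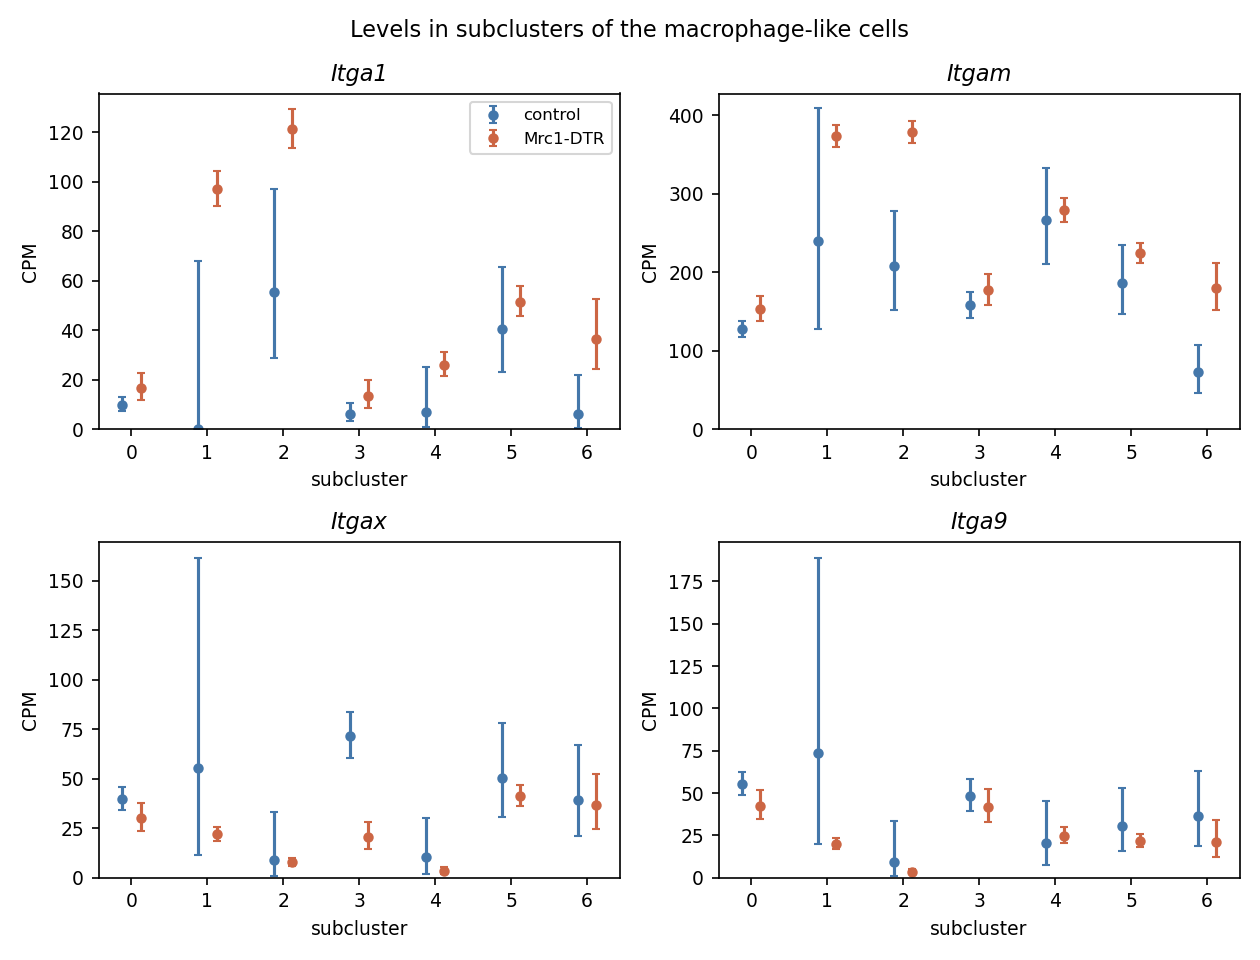
Levels of Itga1, Itgam, Itgax and Itga9 (CPM, with 95% Poisson intervals) in the 7 subclusters of macrophage-like cells, in the control library (blue) and the Mrc1-DTR library (orange). Itga1 is high in subclusters 1 and 2 of the Mrc1-DTR library, which hold 1177 and 1048 cells labelled Mrc1-DTR but 11 and 38 control cells. Itgax is low in subclusters 2 and 4 of both libraries, on only 2 and 3 UMIs in the control library.

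Itga1 did not move the same way in every other class. In fibroblast-like cells it was also higher in the library labelled Mrc1-DTR, at 15.3 and 20.5 CPM (log2 ratio 0.40, 0.18 to 0.66). It stood at 63.0 and 47.7 CPM in dendritic-like cells (log2 ratio -0.40, -0.66 to -0.15), at 96.3 and 58.4 CPM in endothelial-like cells (-0.71, -1.26 to -0.20) and had a log2 ratio of -0.03 (-0.19 to 0.13) in pericyte-like cells. Itgam was higher in the library labelled Mrc1-DTR in other myeloid classes also, at 34.9 and 83.8 CPM in dendritic-like cells (1.24, 0.99 to 1.55) and with a log2 ratio of 1.13 (0.62 to 1.71) in neutrophil-like cells. Itgax stood at -0.28 (-0.48 to -0.10) in dendritic-like cells and -0.93 (-1.87 to -0.15) in NK- or T-like cells. Among dendritic-like cells Itgb3 also passed 2-fold, from 7.40 to 19.2 CPM (1.27, 0.78 to 2.01), which makes 2 higher and 0 lower of 14 members, against 0.992% of 7965 genes higher and 1.47% lower. There Itgae (-0.75, -1.15 to -0.41) and Itgal (-0.68, -1.26 to -0.21) were lower but within it. Most macrophage markers were also raised in the dendritic-like cluster, and the part of macrophage-like cells in its ratios was not tested.

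Fibroblast-like cells had nearly even levels of their own integrins and laminins in the libraries. Of 27 members tested, 3 were at least 2-fold higher in the library labelled Mrc1-DTR and 0 lower, against 2.64% and 1.40% of 11814 genes. All 3 were leukocyte integrins at low levels: Itgam at 1.80 and 10.1 CPM, Itgb2 at 1.28 and 7.00 CPM and Itgb7 at 1.83 and 5.76 CPM. Of the matrix receptors, Itgb1 (300 and 342 CPM) had a log2 ratio of 0.19 (0.13 to 0.25), Itga5 of 0.22 (0.16 to 0.27), Itgav of 0.01 (-0.06 to 0.09), Itga11 of 0.07 (-0.19 to 0.33) and Itgb5 of -0.31 (-0.41 to -0.21). Among laminins Lamb1 (97.0 and 128 CPM; 0.40, 0.30 to 0.49) and Lamc1 (110 and 147 CPM; 0.41, 0.33 to 0.51) stood above Lama2 (0.20, 0.09 to 0.31), Lama4 (0.17, 0.08 to 0.26) and Lamb2 (0.00, -0.09 to 0.09). The tested genes that were highest in epithelial-like cells did not move alike. Itgb6 was at -0.85 (-3.13 to -0.43) on 67 and 6 UMIs, Lamb3 at -0.71 (-3.61 to -0.22) on 46 and 4 UMIs and Itga2 at -0.33. Itgb4 was at 0.71 (0.35 to 1.57) on 68 and 37 UMIs. Of these, 18 and 14 lay in fibroblast subcluster 5, which held 18 control cells and 24 labelled Mrc1-DTR. Within it Itgb4 stood at 156 and 75.7 CPM, lower in the library labelled Mrc1-DTR. Keratinocyte RNA in fibroblast-like cells stood at 405 and 91.3 CPM. The part of keratinocyte RNA or of subcluster 5 in these ratios was not tested. Itgb4, Itga4 and Itgb8, all under 4 CPM, had log2 ratios between 0.65 and 0.71, and Itga2b (-0.39) was lower. Itgb3 had -0.14, Itga9 0.04, Lamc3 0.09, Itga8 0.29, Itga6 0.35, Itga1 0.40 and Itga7 0.42. Subcluster 5 also held 57 of the 184 control Itga6 UMIs and 36 of the 68 of the other library, at 493 and 195 CPM. The median log2 ratio was 0.20 over the members and 0.12 over all genes tested.

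Levels also differed between the fibroblast subclusters. Subcluster 0 (Plac8-like, 864 and 293 cells) had Lama4 at 176 CPM in both libraries, Lamb1 at 163 and 150 CPM and Lamc1 at 160 and 187 CPM. In subcluster 1 (unnamed, 1022 and 97 cells) these stood at 78.4 and 67.4, 67.6 and 108, and 56.1 and 84.8 CPM, so Lamb1 (log2 ratio 0.67, 0.41 to 0.94) and Lamc1 (0.59, 0.29 to 0.89) were higher in the library labelled Mrc1-DTR there, but in subcluster 0 Lamb1 was at -0.12 (-0.24 to 0.00). Itga5 moved in the same subcluster, from 187 to 311 CPM (0.73, 0.58 to 0.89). Subcluster 3 (unnamed, 387 and 136 cells) had the highest Lama2 of subclusters 0 to 3, at 123 and 151 CPM, and also the highest Lamc3, at 55.2 and 60.1 CPM.

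In the library labelled Mrc1-DTR, most Itgam and Itgb2 UMIs of fibroblast-like cells lay in 1 subcluster. Subcluster 4, with 24 control cells and 45 cells labelled Mrc1-DTR, had macrophage genes among its leading genes, with Lyz2 at 3019 and 2087 CPM. It held 82 of the 98 Itgam UMIs, 50 of the 68 Itgb2 UMIs and 26 of the 56 Itgb7 UMIs of that library. In the control library it held fewer of them, 24 of 63 for Itgam, 10 of 45 for Itgb2 and 10 of 64 for Itgb7. Without it, 0 of 27 members passed 2-fold in fibroblast-like cells, and no share of all genes is given for that count. Per 1000 UMIs of 4 leukocyte genes (Lyz2, Tyrobp, Fcer1g and Laptm5, chosen after the values were seen), fibroblast-like cells labelled Mrc1-DTR had 23.7 Itgam and 16.4 Itgb2 UMIs and macrophage-like cells of that library 20.5 and 16.8. For Itgb7 there, 56 UMIs stood beside 4137 of the 4 genes in fibroblast-like cells and 2163 beside 445841 in macrophage-like cells. In the control library, fibroblast-like cells had 63 Itgam and 45 Itgb2 UMIs beside 2927, and macrophage-like cells 1196 and 1582 beside 126873. The ratios of Itgb7, and of Itgam in the control library, were thus not alike in these classes. The part of leukocyte RNA was not tested.

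**Figure D4:**
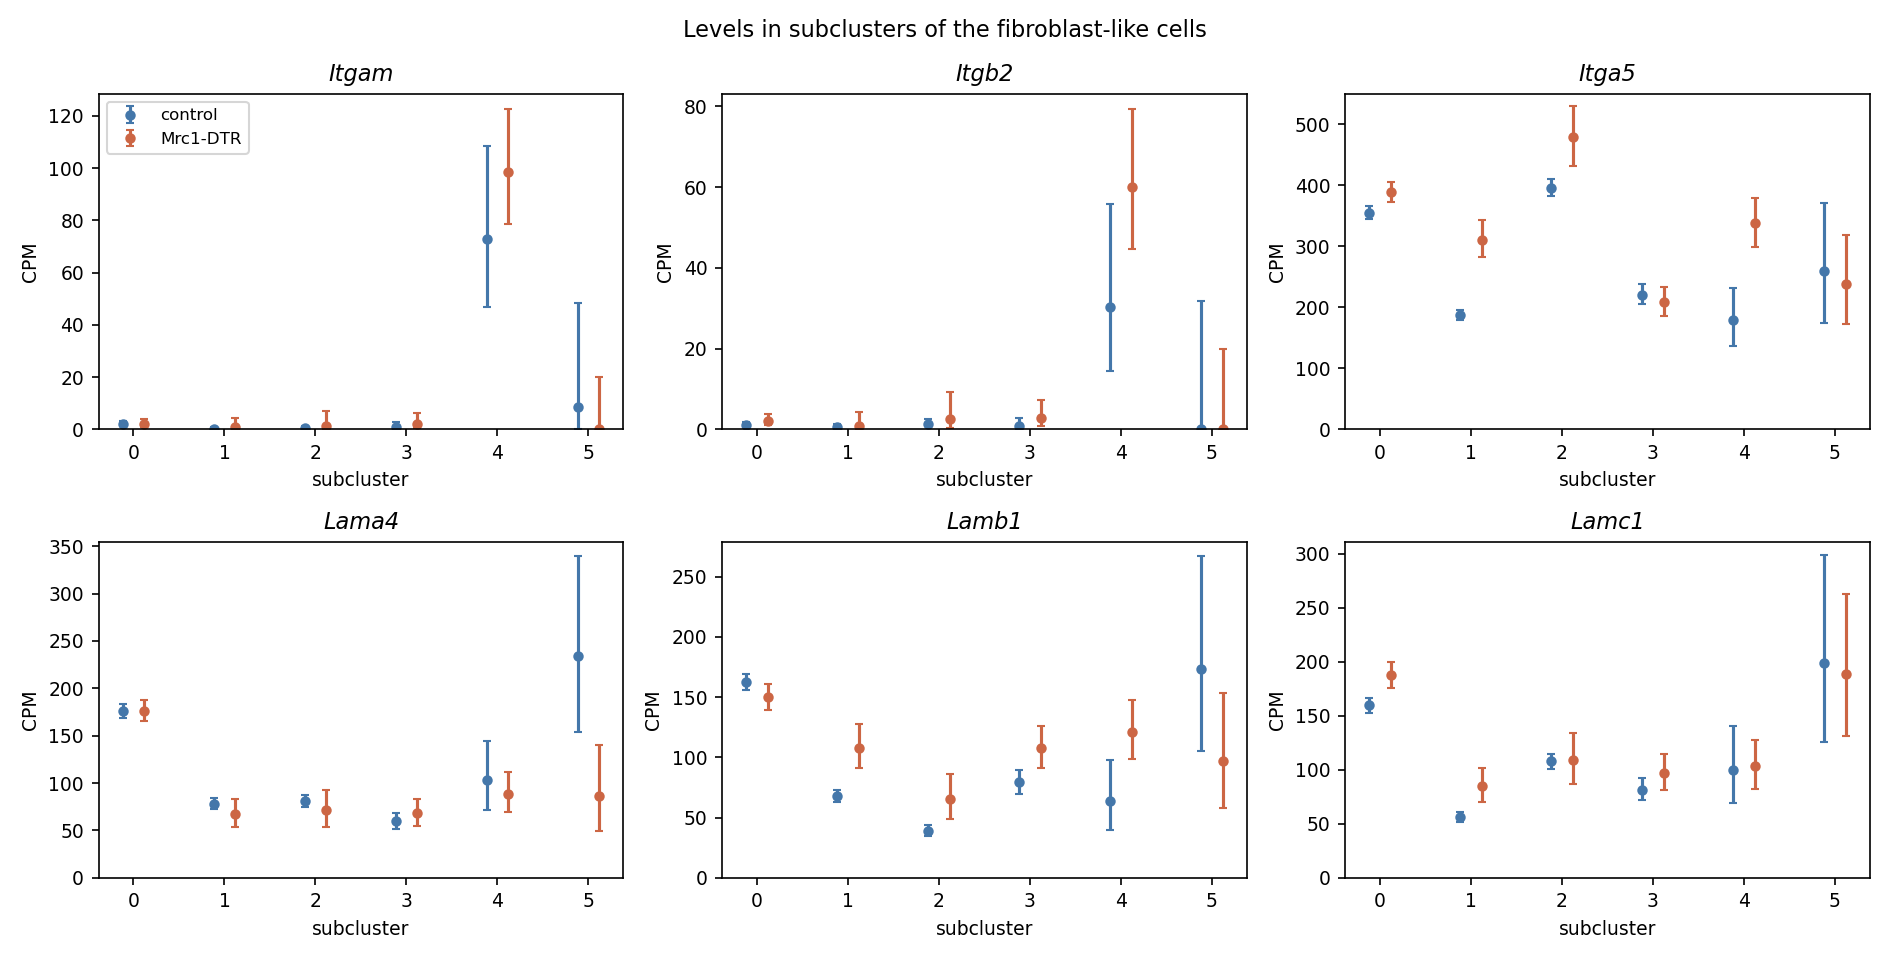
Levels (CPM, with 95% Poisson intervals) of Itgam, Itgb2, Itga5, Lama4, Lamb1 and Lamc1 in the 6 subclusters of fibroblast-like cells, in the control library (blue) and the Mrc1-DTR library (orange). Itgam and Itgb2 stand out in subcluster 4 alone, at 98.6 and 60.1 CPM in the Mrc1-DTR library, while Lama4 is high in subcluster 0 of both libraries, at 176 CPM.

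Epithelial-like cells of the libraries differed in 3 of 21 members by at least 2-fold, all higher in the library labelled Mrc1-DTR, against 2.67% of 10288 genes higher and 2.07% lower. Lama5, an alpha chain of adult epidermal and vessel laminins, stood at 2.99 and 7.73 CPM (85 and 30 UMIs; log2 ratio 1.13, 0.72 to 1.99). The others were Itgam (1.05 and 9.53 CPM) and Itgb2 (1.69 and 8.24 CPM). Subcluster 5, with 26 and 16 cells and Lyz2 at 1496 and 2536 CPM, held 33 of 37 Itgam and 23 of 32 Itgb2 UMIs of the library labelled Mrc1-DTR, and 9 of 30 and 22 of 48 of the control library. Without it only Lama5 passed 2-fold, at 1.10, and no share of all genes is given for that count. Only 235 epithelial-like cells were labelled Mrc1-DTR, beside 2066 control cells.

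Lamb3 (-0.63, -0.91 to -0.39), Itgb1 (-0.48, -0.59 to -0.38) and Itga2 (-0.39, -0.55 to -0.24) were lower in epithelial-like cells labelled Mrc1-DTR, with intervals below 0 but within 2-fold. Lama3 (0.35, 0.18 to 0.52), Itga6 (0.19, 0.10 to 0.29), Itga5 (0.49, 0.18 to 0.83), Itgb8 (0.81, 0.40 to 1.41) and Lamb1 (0.96, 0.43 to 2.14, on 50 and 17 UMIs) lay above 0. Over the class as a whole, the partners of the hemidesmosome laminin, Lama3 and Lamb3, had intervals on opposite sides of 0. Itgb4 (-0.17, -0.40 to 0.04), Itgav (-0.06, -0.19 to 0.06) and Itga3 (0.28, -0.05 to 0.62), a laminin receptor subunit of basal keratinocytes, had intervals that include 0. The other members tested had log2 ratios from -0.12 (Lamb2) to 0.76 (Itga2b). The median was 0.28 over the members and 0.08 over all genes tested.

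Levels differed between the subclusters of epithelial-like cells too. Subcluster 2 (unnamed, 433 and 16 cells) had Krt14, a keratin of the basal layer, at 12636 and 15742 CPM and Col17a1, a hemidesmosome collagen, at 1136 and 1260 CPM. It also had Itgb4 at 141 and 205 CPM, Lamb3 at 153 and 154 CPM, Itga2 at 412 and 487 CPM and Itgb1 at 782 and 991 CPM. In subcluster 0 (spinous-like, 706 and 59 cells) Itgb4 stood at 19.5 and 17.2 CPM and Lamb3 at 14.1 and 6.33 CPM, and in subcluster 1 (follicle-like, 522 and 85 cells) at 11.8 and 10.7 and at 11.8 and 3.05 CPM. Subcluster 3 (unnamed, 308 and 54 cells) lay with subcluster 2 for Itga6, at 475 and 669 CPM, and Lama3, at 151 and 250 CPM. The share of subcluster 2 was 433 of 2066 cells in the control library and 16 of 235 in the other. The part of these shares in the ratios of the class was not tested.

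Within subclusters, the directions were not all those of the class. In subcluster 3, Lama3 (0.72, 0.48 to 0.97), Itga6 (0.49, 0.35 to 0.64) and Itga2 (0.66, 0.41 to 0.90) were higher in the library labelled Mrc1-DTR, with Lamb3 at 0.05 (-0.31 to 0.40), and Lama5 passed 2-fold at 1.24 (0.43 to 2.17). In the follicle-like subcluster Itgb1 (62.8 and 24.4 CPM; -1.33, -1.93 to -0.85), Itga5 (-1.38, -3.57 to -0.22) and Lamb3 (-1.67, -3.87 to -0.54, on 78 and 4 UMIs) were past 2-fold lower. In the spinous-like subcluster Itgb6 was at 0.59 (0.28 to 0.90) and Itgb1 at -0.04 (-0.29 to 0.21), and Lamb3, on 159 and 7 UMIs, was at -1.04 (-2.49 to -0.08). Lama3 had the same sign as Lamb3 in both, at -0.67 (-1.68 to 0.11) in the follicle-like and -0.60 (-1.50 to 0.11) in the spinous-like subcluster.

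**Figure D5:**
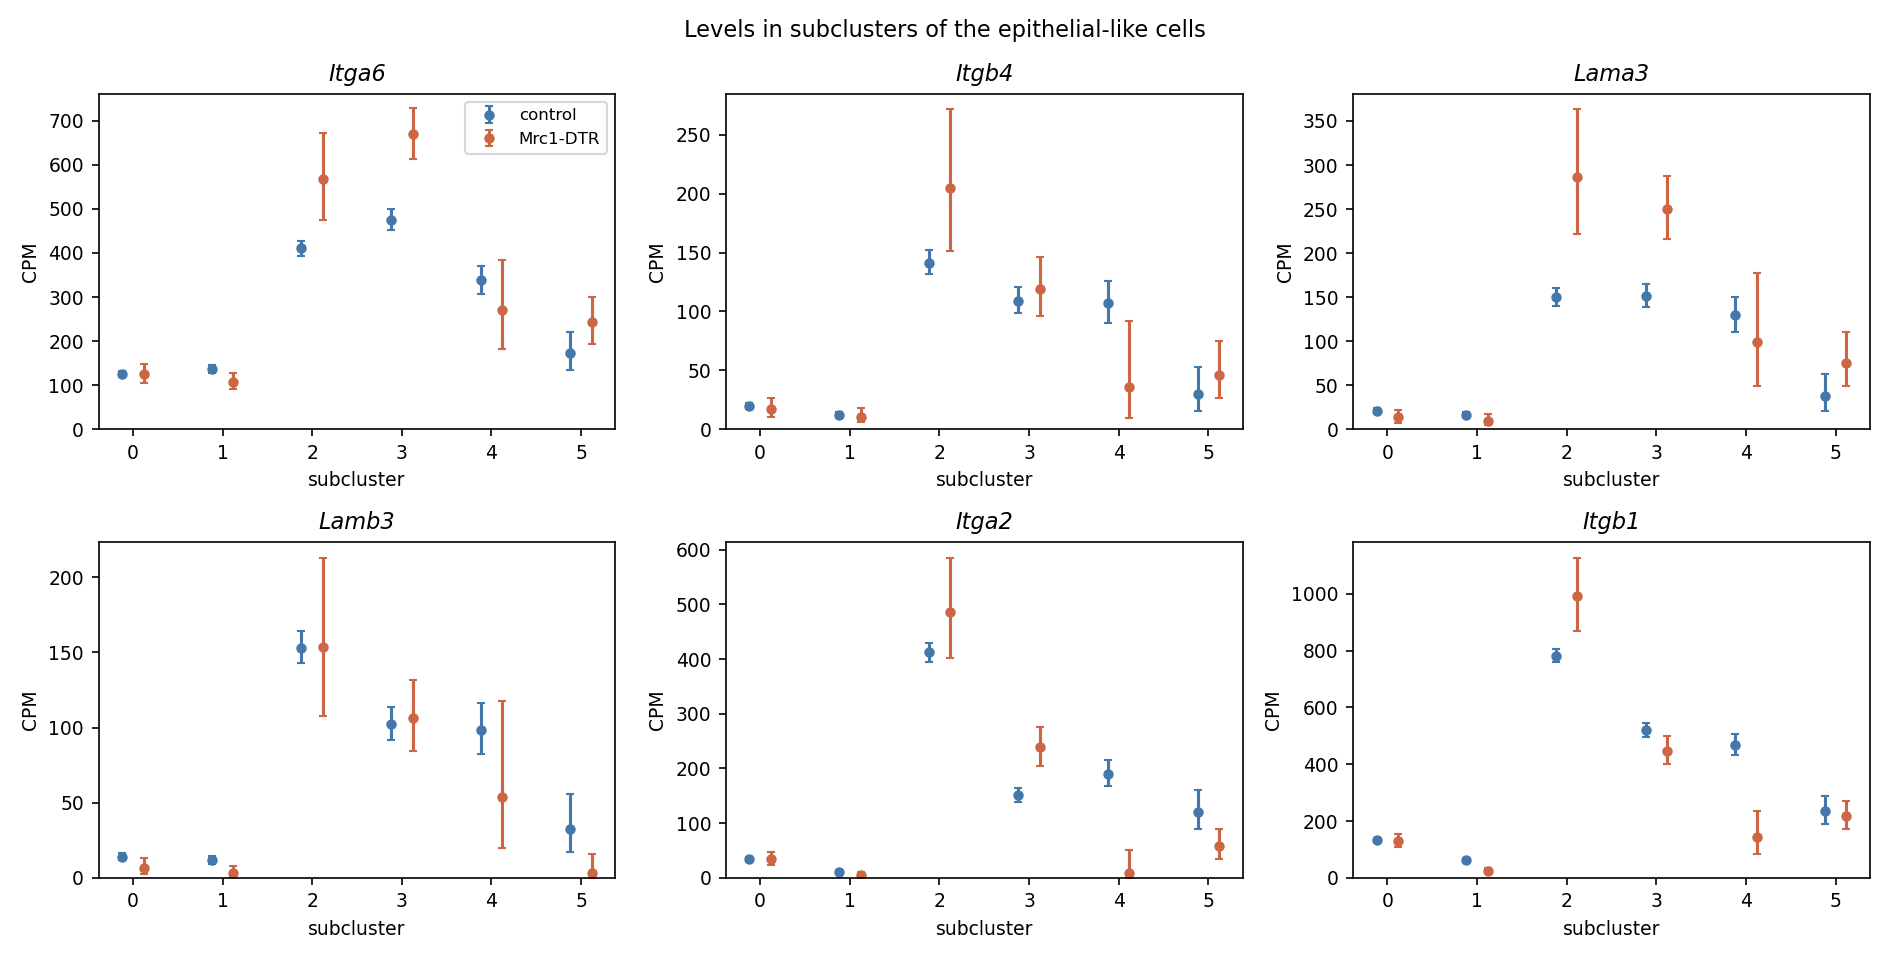
Levels (CPM, with 95% Poisson intervals) of Itga6, Itgb4, Lama3, Lamb3, Itga2 and Itgb1 in the 6 subclusters of epithelial-like cells, in the control library (blue) and the Mrc1-DTR library (orange). All 6 genes are higher in subclusters 2 and 3 than in 0 (spinous-like) and 1 (follicle-like), as with Lamb3 at 153 and 102 CPM against 14.1 and 11.8 CPM in the control library; subclusters 2, 4 and 5 hold under 20 cells of the Mrc1-DTR library.

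Vessel cells differed in other members. In endothelial-like cells Itga3 stood at 59.1 and 24.6 CPM (-1.23, -2.09 to -0.50, on 62 and 19 UMIs) and Lama4, the alpha chain of endothelial laminin, at 290 and 149 CPM (-0.95, -1.28 to -0.64), while Itgb3 (0.83, 0.50 to 1.18), Itgav (0.78, 0.58 to 0.98) and Itga5 (0.58, 0.34 to 0.82) were higher in the library labelled Mrc1-DTR. Among 14 members tested there, 0 were past 2-fold higher and 1 lower, against 1.84% and 2.62% of 4991 genes. In pericyte-like cells Itga4 stood at 64.9 and 19.0 CPM (-1.72, -2.44 to -1.12) and Itga8 at 31.3 and 13.7 CPM (-1.14, -2.06 to -0.35), the 2 lower of 17 members, with 0 higher, against 2.11% of 5637 genes lower and 2.22% higher. Itga5 was at 0.52 (0.29 to 0.75) there. Of 13 members, 0 passed 2-fold in NK- or T-like cells, against 1.12% of 6348 genes higher and 1.29% lower, and Itgb1 stood at 0.47 (0.20 to 0.75). In neutrophil-like cells Itgb2 (-0.64, -1.07 to -0.20) and Itgb1 (-0.72, -1.34 to -0.07) were lower, within 2-fold, beside the higher Itgam, the 1 call among 6 members, against 6.10% of 2853 genes higher and 4.14% lower.

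The proteins that integrins bind or act through were followed as 2 lists, 21 genes of the adhesion complex and 20 of basement membranes and ligands. The share of all genes past 2-fold was 1.60% higher and 3.33% lower in macrophage-like cells, 2.64% and 1.40% in fibroblast-like cells and 2.67% and 2.07% in epithelial-like cells. Of 15 adhesion complex genes tested in macrophage-like cells 0 were past 2-fold higher and 1 lower, Ptk2, the focal adhesion kinase, at 3.25 and 1.11 CPM; in fibroblast-like cells 2 of 19 were higher, the leukocyte kindlin Fermt3 and Parvb, both under 6 CPM; and in epithelial-like cells 0 of 17 passed in either direction. The median log2 ratio of the adhesion list in these classes was 0.24, 0.24 and 0.05, and that of the ligand list 0.04, 0.23 and 0.15. Fn1, fibronectin, which binds the integrin of Itga5 and Itgb1, stood at 239 and 543 CPM in macrophage-like cells (log2 ratio 1.18, 1.12 to 1.25), and Vcam1, the ligand of Itga4, at 40.9 and 11.9 CPM (-1.70, -2.002 to -1.57). Nid1 and Hspg2 were also past 2-fold lower there, both under 4 CPM, which makes 1 higher and 3 lower of 14. Fibroblast-like control cells held them at 273 and 239 CPM, and fibroblast RNA in macrophage-like cells went from 899 to 186 CPM; its part in these 2 ratios was not tested. In fibroblast-like cells Spp1, osteopontin, a ligand of Itgav and Itga9 receptors, stood at 62.1 and 322 CPM (2.36, 2.30 to 2.45), Vtn, vitronectin, at 3.20 and 29.4 CPM (2.86, 2.88 to 3.53) and Nid2 at 20.5 and 43.8 CPM (1.06, 0.92 to 1.27). Cdh1 and Col17a1, both epithelial, were lower, giving 3 higher and 2 lower of 16. In epithelial-like cells Spp1 (2.11 and 82.9 CPM) and Fn1 (15.3 and 64.7 CPM) were past 2-fold higher and Vcam1 and Nid1 lower, of 15 tested. Macrophage-like cells had Spp1 at 594 and 1081 CPM. Fn1 and Spp1 were among the leading genes of macrophage subcluster 1, which held 11 control cells and 1177 labelled Mrc1-DTR. Leukocyte RNA went from 69.1 to 459 CPM in epithelial-like cells and from 83.6 to 426 CPM in fibroblast-like cells. Spp1 was among the leading genes of fibroblast subcluster 5, which held 18 control cells and 24 labelled Mrc1-DTR. Fibroblast-like cells had Vcam1 at 619 and 395 CPM and Nid1 at 273 and 319 CPM, and fibroblast RNA in epithelial-like cells went from 733 to 116 CPM. The part of leukocyte RNA, fibroblast RNA or these subclusters in these ratios was not tested. The part of the mix of macrophage subclusters in the Fn1, Vcam1 and Spp1 levels of macrophage-like cells was not tested either.

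The genes with patterns most like single members across 16 points (8 classes in 2 libraries, which share depth and libraries) were found among 10231 other genes, by Pearson's r of log levels, as a description. Itgb2 was followed most closely by Cd53 (r = 0.988), Laptm5 (0.983) and Fcer1g (0.982), and Lama4 by Pxdn (0.986), Tgfb1i1 (0.98) and Tmem47 (0.974). Itgb4 had Moxd1 (0.966), Slc1a1 (0.963) and Palmd (0.955), and Itgb1 had Rnf14 (0.958) and Tpm1 (0.933) among its closest.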

How the data were processed

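The authors deposited raw UMI counts as 1 matrix per library, from Cell Ranger on mm10; the submitters' processing notes and the file headers name version 6.1.1, and the paper another. Cells were kept that had 500 or more genes and no more than 6% mitochondrial counts. Scrublet in scanpy 1.11.5 marked 382 control doublets and 0 in the library labelled Mrc1-DTR, where the 575 top-scoring cells (8%) were removed. The limit of 2000 genes per cell of the methods was an alternative. Seurat 5.3.0 clustered the cells (2000 variable genes without the members, 30 components, resolution 0.2; 0.5 for macrophage-like cells alone), and a name needed 3 raised markers.

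Counts were summed per class and library. Ratios are log2((CPM + 1)/(CPM + 1)), Mrc1-DTR over control, for genes with at least 50 UMIs, and a call means at least 2-fold. Intervals are 95% exact Poisson, Clopper-Pearson or conditional binomial, on 81235634 and 54872675 UMIs. Levels are not divided by gene length. Apart from the choice of the 3 most expressed members of a class, members were not ranked against each other by level. Gene positions are those of GENCODE on GRCm38. The calculation was tested on simulated data. Members and lists were chosen with earlier results of these data known. By rule, the text names the 5 largest rises and falls and the 3 most expressed members in each main class, the highest classes of members with at least 200 UMIs, and the 3 genes most like Itgb4, Itgb2, Itgb1 and Lama4 among genes with at least 500 UMIs, of which 1 is not reported here; other values were chosen after they were seen.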

Additional observations from a re-analysis of the deposited data

Results flagged for a closer look

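Some members moved in opposite directions in different classes, with counting intervals on either side of 0 and at least 1 of the ratios past 2-fold. With 1 library per group these differences were not tested. Itga1 was higher in macrophage-like cells labelled Mrc1-DTR and lower in dendritic-like cells, log2 ratios that differ by 2.95, and in endothelial-like cells, by 3.27. Itga4 was higher in fibroblast-like cells (0.70, on 44 and 26 UMIs) and lower in pericyte-like cells, a difference of 2.42. Fibroblast subcluster 4, with macrophage genes among its leading genes, held 1 of the 44 and 9 of the 26 UMIs. Itgb2 was higher in fibroblast-like and in epithelial-like cells and lower in neutrophil-like cells, by 2.45 and 2.42. Itgb7 was higher in fibroblast-like cells and lower in NK- or T-like cells (-0.21), by 1.47. The fibroblast-like and epithelial-like levels of Itga4, Itgb2 and Itgb7 were at most 8.24 CPM. The leukocyte RNA of the same classes, 4 genes summed, rose from 83.6 to 426 CPM and from 69.1 to 459 CPM. Of these 4 genes, Laptm5 and Fcer1g were among those with levels most like Itgb2 in these data. The part of leukocyte RNA in these ratios was not tested.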

How the results depend on the processing

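Of the 36 log2 ratios that the naming rule picked in the 3 main classes (the largest rises and falls and the most expressed members; other ratios are not counted here), 247 of 259 values under other settings kept the sign reported, 12 had the other sign and none of these was a ratio past 2-fold; of 69 values of the 10 ratios past 2-fold, 58 stayed past it. In macrophage-like cells the count of 4 was 3 to 5 under the planned settings, but 0 within subcluster 0 and 1 within subcluster 3, both chosen after seeing the data. The 3 of fibroblast-like cells became 6 without removal of doublets or with 0.1 CPM added, and 0 with cells thinned to 2000 UMIs, with at least 200 UMIs required, or without subcluster 4 (chosen after seeing the data). The 3 of epithelial-like cells became 1 with thinned cells, 0 with at least 200 UMIs and 1 without subcluster 5 (chosen after seeing the data). Thinning and the higher minimum leave fewer genes tested, and the cause of the other changes was not tested. No share of all genes is given beside the counts of this section, so they are not read as a result about the members. The number of members with the same highest class in both libraries, 27, was 19 to 27. With median-of-ratios scaling all ratios shifted by 0.07 to 0.13 on the log2 scale, and Itgam in macrophage-like cells came to 0.98. With the limit of 2000 genes, under 50 epithelial-like cells labelled Mrc1-DTR remained and no value was given; the fibroblast-like calls were then 0 higher and 2 lower, of 11 tested, and Itga9 in macrophage-like cells came to -0.97. No paired analysis was possible because each group has 1 library. Depth limits members under 200 UMIs and the small classes.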
